A study of Homo sapiens with 15 samples.

Results

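A set of 9 genes of antigen presentation, given by name, were followed in HepG2, a human hepatocellular carcinoma cell line: the class I heavy chain genes HLA-B, HLA-C and HLA-E, their light chain gene B2M, the peptide transporter gene TAP1, the class I transactivator gene NLRC5, and the class II pathway genes CD74, HLA-DRA and HLA-DMA. The set was chosen with earlier results of these data known. All 9 were found by name among the 57773 genes listed for each library, and none had a further row with a copy number behind its name. The study exposed the cells for 72 h to tris(2-chloroisopropyl) phosphate (TCIPP) at 25 or 2.5 µM, to tris(2-chloroethyl) phosphate (TCEP) at 250 or 25 µM, or to 0.1% DMSO alone, which is the solvent control. TCIPP and TCEP are used as flame retardants and belong to the chlorinated organophosphates, and every chloroalkyl arm of TCIPP has a methyl group more than the arm of TCEP. Every group (5 in all) was represented by 3 libraries from separately seeded, treated and extracted cultures, made from poly-A RNA with a stranded kit and read as pairs on an Illumina HiSeq. All groups are cultures of 1 transformed line in medium with serum, so no immune cells or cytokine treatment were part of the design.

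Class I molecules are made by almost all nucleated cells: a heavy chain pairs with beta-2-microglobulin in the endoplasmic reticulum, where the TAP transporter delivers peptides cut by the proteasome. Class II molecules present peptides from endosomes and are made mainly by professional antigen-presenting cells, in which the invariant chain CD74 occupies the peptide groove until HLA-DM exchanges it for a peptide. Both sets of promoters carry an S, X and Y box module bound by the RFX complex, CREB and ATF factors and NF-Y, onto which NLRC5 is recruited at class I genes and CIITA at class II genes. Hepatocytes carry class I molecules and make few or no class II molecules at rest.

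The libraries held between 5.35 and 26.8 M (megareads) of exon reads, the median being 8.89 M. Levels are given as CPM, which is exon reads scaled to a megaread with TMM factors, and 3 reads corresponded to 0.112 to 0.560 CPM depending on the library. All 9 hepatocyte markers were above the filter on low counts, with a summed level of 47491 to 59056 CPM per library. Of 12 markers of leukocytes and professional antigen-presenting cells, 3 passed the filter (CD14, CD68 and CD83). CD68 made up most of their reads, with 5476 in all against 300 for CD14 and 244 for CD83. Only 5.39% of the CD68 reads mapped to a single place, so the sums below may hold reads of other genes. The summed level of all 12 lay at 26.6 to 45.3 CPM with 25 µM TCIPP, 35.5 to 54.1 with 2.5 µM TCIPP, 26.3 to 44.9 with 250 µM TCEP, 37.03 to 52.8 with 25 µM TCEP and 29.7 to 39.0 in DMSO. Among the defining markers, the pan-leukocyte gene PTPRC had 1 read in all 15 libraries together and the B cell gene MS4A1 had 0. Of 5 endothelial markers 4 were matched and 1 passed the filter. Of the stellate and fibroblast markers 3 of 7 passed, with COL1A2, DCN and LUM at 0 reads. Of 4 cholangiocyte markers 2 passed, KRT19 (67.3 RPKM) and SOX9 (50.8 RPKM, with 8.51% of reads mapped to a single place). The summed level of the 4 was 359 to 419 CPM per library. In these bulk libraries, fewer cells of a type and less RNA per cell cannot be told apart.

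On hg19, HLA-E (chr6:30457244-30461982), HLA-C (chr6:31236526-31239907), HLA-B (chr6:31321649-31324965), HLA-DRA (chr6:32407619-32412823), TAP1 (chr6:32812986-32821755) and HLA-DMA (chr6:32916390-32936871) lie in the major histocompatibility complex on chromosome 6. B2M (chr15:45003675-45011075), CD74 (chr5:149781200-149792492) and NLRC5 (chr16:57023397-57117443) lie outside it. The intervals are whole gene spans, and the reads compared are those in exons. The span of TAP1 lies wholly inside that of PSMB9 on the opposite strand, with 8770 shared bases, and 1287 of its bases also overlap the long noncoding RNA gene TAPSAR1. The sources do not say if reads were counted by strand, so reads of overlapping genes cannot be told apart. PSMB9 and TAPSAR1 had only 286 and 26 exon reads in all, against 4300 for TAP1.

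The first 120 bases before the start are shown for members with different levels and different behaviour, so that the spacing of 2 promoter words can be compared with the values below. The sequences are RefSeq promoter windows on GRCh38.p14, a build other than that of the counts, and 6 of the 9 members had at least 1 window there. Capitals mark CCAAT, the core of the Y box bound by NF-Y, and TGACG, the core of the X2 box bound by CREB and ATF factors, searched on both strands (so that ATTGG is CCAAT read from the other strand). The 2 words do not overlap each other.
HLA-B (chr6:31357180-31357299, minus strand): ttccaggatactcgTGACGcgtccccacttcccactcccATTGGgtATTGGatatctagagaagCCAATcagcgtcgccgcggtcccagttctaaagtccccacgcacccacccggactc
HLA-C (chr6:31272093-31272212, minus strand): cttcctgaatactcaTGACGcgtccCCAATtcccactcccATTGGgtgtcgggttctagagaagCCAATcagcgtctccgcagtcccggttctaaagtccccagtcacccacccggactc
B2M (chr15:44711397-44711516, plus strand): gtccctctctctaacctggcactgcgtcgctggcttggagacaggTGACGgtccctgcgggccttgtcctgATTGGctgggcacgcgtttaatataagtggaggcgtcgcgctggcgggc
CD74 (chr5:150412911-150413030, minus strand): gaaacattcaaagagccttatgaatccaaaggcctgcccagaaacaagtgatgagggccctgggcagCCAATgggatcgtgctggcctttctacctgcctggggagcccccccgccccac
TAP1 (chr6:32853705-32853824, minus strand): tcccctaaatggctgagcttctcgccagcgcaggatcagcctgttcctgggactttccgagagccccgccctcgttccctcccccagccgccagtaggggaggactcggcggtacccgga

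HLA-B, HLA-C and B2M each held both words, with TGACG beginning 106, 105 and 75 bases before their starts. CCAAT began 56 bases before the start in HLA-B and in HLA-C, and HLA-C held a further CCAAT at 95 bases. The reverse ATTGG began at 81 and 74 bases in HLA-B, at 80 and 192 bases in HLA-C, and at 49 bases in B2M. All of these lay nearer to the start than TGACG, except the ATTGG at 192 bases in HLA-C. CD74 held CCAAT alone, 53 bases before its start, and HLA-DMA held only the reverse ATTGG, at 79 and 49 bases. The TAP1 window printed holds neither word within 120 bases of the start, and over 250 bases it has a single ATTGG at 249. The other TAP1 window, for a different start, had none. These words are common: of 35116 promoter windows of 250 bases, 32% held CCAAT, 21.2% held TGACG and 7.26% held both. HLA-E, HLA-DRA and NLRC5 are named without a window.

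Per kilobase of exon, in RPKM as the authors deposited it, B2M had the highest level of the members, with a mean of 122 ± 7.62 RPKM over the 15 libraries (SD) and a range of 105 to 137. HLA-C followed at 53.0 ± 2.82 RPKM, HLA-E at 32.2 ± 2.15 and HLA-B at 17.0 ± 1.20. CD74, although a class II pathway gene, stood at 15.01 ± 1.38 RPKM, a level whose range overlapped that of HLA-B. TAP1 had 4.77 ± 0.799 RPKM and NLRC5 0.528 ± 0.103 RPKM. At the low end, HLA-DMA averaged 0.109 RPKM with a range of 0 to 0.281, and HLA-DRA was at 0 in each library. In this order the ranges of neighbouring genes did not overlap, except for HLA-B with CD74 and HLA-DMA with HLA-DRA. Some class I reads could belong to near-identical relatives: 89.7% of HLA-B, 96.6% of HLA-C and 99.0% of HLA-E exon reads mapped to a single place, and only 64.6% of those of TAP1. For B2M and CD74 that share was 100%, and for NLRC5 99.9%.

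**Figure D1:**
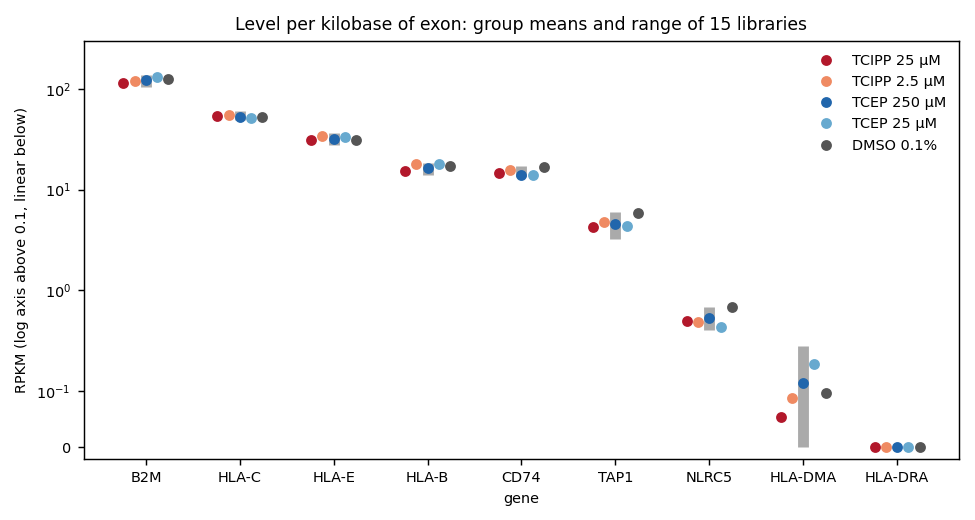
Level of the 9 genes in RPKM on a log axis that turns linear below 0.1, with points for the mean of 3 libraries per group and grey bars for the range over all 15 libraries. B2M is highest at 105 to 137 RPKM, and HLA-DRA lies at 0 in all groups.

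The class I heavy chains and their light chain kept within narrow bounds. HLA-C, a classical class I heavy chain, had 167, 138 and 135 CPM with 25 µM TCIPP, 153, 148 and 147 CPM with 2.5 µM TCIPP, 144, 141 and 144 CPM with 250 µM TCEP, 144, 141 and 142 CPM with 25 µM TCEP, and 142, 153 and 144 CPM in DMSO. The groups overlapped, and replicate 1 of 25 µM TCIPP was the highest library. HLA-E, a non-classical heavy chain that displays leader peptides of other class I chains to natural killer cells, had 109, 98.0 and 96.1 CPM with 25 µM TCIPP, 110, 119 and 107 CPM with 2.5 µM TCIPP, 102, 105 and 101.2 CPM with 250 µM TCEP, 103, 110 and 109 CPM with 25 µM TCEP, and 92.5, 111 and 98.6 CPM in DMSO. No treated library was below all 3 DMSO libraries for HLA-E, and the DMSO libraries themselves spanned most of the range.

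HLA-B, the other classical heavy chain among the members, had 56.0, 46.8 and 50.9 CPM with 25 µM TCIPP, 59.7, 56.7 and 60.6 CPM with 2.5 µM TCIPP, 56.4, 52.4 and 53.3 CPM with 250 µM TCEP, 59.8, 61.8 and 55.7 CPM with 25 µM TCEP, and 55.5, 55.8 and 57.4 CPM in DMSO. The treated libraries lay on both sides of the DMSO libraries. B2M, the common light chain, had 406, 406 and 362 CPM with 25 µM TCIPP, 417, 435 and 383 CPM with 2.5 µM TCIPP, 406, 438 and 423 CPM with 250 µM TCEP, 443, 477 and 426 CPM with 25 µM TCEP, and 427, 414 and 448 CPM in DMSO. With 25 µM TCIPP all 3 B2M values were below the lowest DMSO value, and the other treatments overlapped DMSO. The coefficient of variation over the 15 libraries was 5.29% for HLA-C, 6.52% for B2M, 6.67% for HLA-E and 7.05% for HLA-B.

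TAP1 and NLRC5 varied more, at 16.7% and 19.6%. TAP1, which forms the peptide transporter together with TAP2, had 27.6, 17.1 and 22.4 CPM with 25 µM TCIPP, 28.2, 21.2 and 24.6 CPM with 2.5 µM TCIPP, 25.4, 20.9 and 24.6 CPM with 250 µM TCEP, 24.5, 19.0 and 24.5 CPM with 25 µM TCEP, and 30.3, 31.1 and 29.7 CPM in DMSO. Each treated library was below each DMSO library, replicate 2 was the lowest in all 4 treated groups, and the DMSO values lay close together. NLRC5, the transactivator of class I genes, had 7.46, 5.83 and 6.98 CPM with 25 µM TCIPP, 7.89, 5.58 and 6.35 CPM with 2.5 µM TCIPP, 8.05, 6.15 and 7.19 CPM with 250 µM TCEP, 5.52, 5.51 and 6.85 CPM with 25 µM TCEP, and 9.47, 9.28 and 9.36 CPM in DMSO. Here too no treated library reached a DMSO library. NLRC5 rests on few reads, between 31 and 200 per library and 1234 in all.

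CD74, which besides its role as class II chaperone is a cell-surface receptor for the cytokine MIF, had 57.1, 47.2 and 49.4 CPM with 25 µM TCIPP, 53.7, 57.3 and 51.7 CPM with 2.5 µM TCIPP, 49.5, 45.8 and 48.2 CPM with 250 µM TCEP, 51.5, 46.8 and 48.9 CPM with 25 µM TCEP, and 60.6, 59.8 and 57.8 CPM in DMSO. All 12 treated libraries were below the 3 DMSO libraries, with the highest treated library, replicate 2 of 2.5 µM TCIPP, only just below the lowest DMSO library. HLA-DRA, the nearly invariant alpha chain of HLA-DR, had no read in any library, which over the 170.473 M exon reads of the study allows up to 0.0176 CPM at a limit of 3 reads and for counting error only. HLA-DMA, a chain of the peptide exchanger HLA-DM, had 52 exon reads in all, with 0 to 8 per library. Of the 427 reads in its gene span 375 (87.8%) were intronic, and the span shares 435 bases with the opposite-strand gene BRD2, which had 44308 exon reads. HLA-DRA and HLA-DMA were below the filter on low counts, so 7 of the 9 members were tested.

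**Figure D2:**
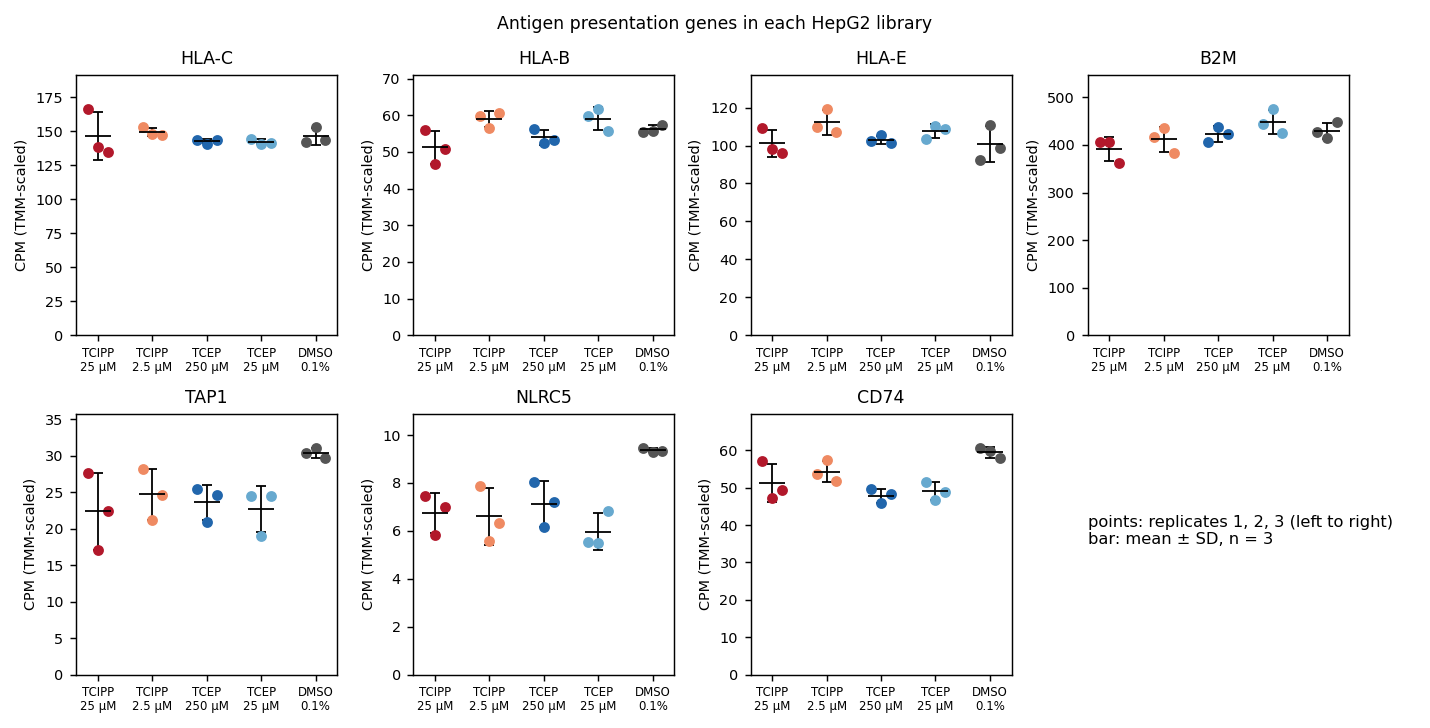
CPM of the 7 tested genes in each library on axes that start at 0, with 1 point per library and bars for the mean ± SD of 3 libraries per group. For TAP1, NLRC5 and CD74 the 3 DMSO libraries lie above all 12 treated libraries, and for HLA-C, HLA-B and HLA-E every treated group overlaps DMSO, as it does for B2M except with 25 µM TCIPP.

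Against DMSO, none of the 7 tested members passed in any of the 4 treatments with edgeR's quasi-likelihood test and Benjamini-Hochberg adjustment over 12567 genes. Few genes passed at all: 1 gene (0.00796%) with 25 µM TCIPP, 12 genes (0.0955%) with 2.5 µM TCIPP, and none (0%) with 250 µM or 25 µM TCEP. A count of 0 among 7 members therefore matches that background. At an unadjusted p under 0.05, 3 members were lower with 25 µM TCIPP, 2 with 2.5 µM TCIPP, 3 with 250 µM TCEP and 3 with 25 µM TCEP, and none was higher. Over all genes the shares that were lower by this measure were 2.95%, 6.06%, 2.81% and 7.81% in the same order. The libraries of a treatment lay wholly below those of DMSO for 4, 3, 3 and 3 members, and for 4.3%, 7.94%, 5.37% and 11.3% of all genes. In 1 test of any difference among the 5 groups, 0 members and 12 genes (0.0955%) passed, and 3 members had an unadjusted p under 0.05, as had 13.7% of genes. DESeq2 called no member in any comparison, but edgeR called some in 2 other settings. Without the low-count filter TAP1 and NLRC5 passed for 25 µM TCEP (edgeR adjusted p = 0.0246 and 0.0249) and 1 member over all groups. With the replicate number as a block NLRC5 passed for 2.5 µM TCIPP (adjusted p = 0.0260), NLRC5, TAP1 and CD74 passed for 25 µM TCEP (0.00803, 0.0146 and 0.0165), and 3 members passed over all groups. The 4 treatments share the 3 DMSO libraries, so their values are not independent of each other. Because the members were chosen with earlier results of these data known, the shares beside them are a description and not a test of the set.

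NLRC5 had the largest fold changes of the 7. Its log2 fold change was −0.45 ± 0.156 with 25 µM TCIPP (SE, edgeR adjusted p = 0.596), −0.51 ± 0.150 with 2.5 µM TCIPP (adjusted p = 0.131), −0.39 ± 0.150 with 250 µM TCEP (adjusted p = 0.941) and −0.64 ± 0.150 with 25 µM TCEP (adjusted p = 0.116). In linear terms the level with 25 µM TCEP was 0.643 times that in DMSO, at 5.96 ± 0.769 CPM against 9.37 ± 0.0923 CPM (SD, n = 3 each). The DMSO values of NLRC5 came from 74, 75 and 200 reads, so their SD is smaller than counting error alone would usually give. TAP1 showed −0.41 ± 0.143 with 25 µM TCIPP (edgeR adjusted p = 0.596), −0.29 ± 0.138 with 2.5 µM TCIPP (adjusted p = 0.356), −0.35 ± 0.139 with 250 µM TCEP (adjusted p = 0.946) and −0.41 ± 0.138 with 25 µM TCEP (adjusted p = 0.184). Its mean was 22.4 ± 5.24 CPM with 25 µM TCIPP, 24.7 ± 3.47 with 2.5 µM TCIPP, 23.6 ± 2.42 with 250 µM TCEP, 22.6 ± 3.16 with 25 µM TCEP and 30.4 ± 0.708 CPM in DMSO. NLRC5 averaged higher at the higher concentration of both compounds, and TAP1 did so for TCEP and not for TCIPP.

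CD74 had smaller but tighter differences from DMSO. The log2 fold change was −0.21 ± 0.0783 with 25 µM TCIPP (edgeR adjusted p = 0.661), −0.14 ± 0.0769 with 2.5 µM TCIPP (adjusted p = 0.459), −0.31 ± 0.0775 with 250 µM TCEP (adjusted p = 0.424) and −0.27 ± 0.0767 with 25 µM TCEP (adjusted p = 0.141). CD74 with 250 µM TCEP averaged 47.8 ± 1.90 CPM, against 59.4 ± 1.45 CPM in DMSO (SD, n = 3 each), which is a ratio of 0.807. For the heavy chains and B2M, the fold changes against DMSO lay between −0.14 for B2M with 25 µM TCIPP and 0.15 for HLA-E with 2.5 µM TCIPP, and all 16 intervals at 95% included 0. The median log2 fold change of the 7 members was −0.14, −0.06, −0.06 and −0.04 for 25 µM TCIPP, 2.5 µM TCIPP, 250 µM TCEP and 25 µM TCEP, beside a median over all tested genes of 0.00 each time.

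**Figure D3:**
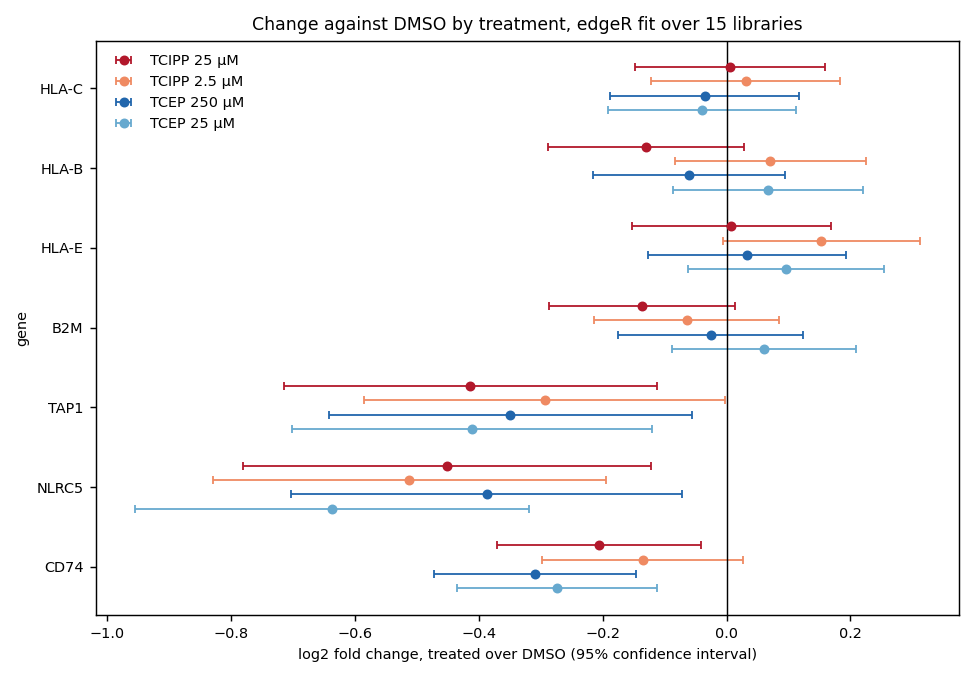
Log2 fold change of each treatment over DMSO for the 7 tested genes, with 95% confidence intervals from the edgeR fit over 15 libraries. The intervals of the heavy chains and B2M cross 0, while TAP1, NLRC5 and CD74 lie below 0 with every treatment, and of their 12 intervals only that of CD74 with 2.5 µM TCIPP crosses 0.

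The values of NLRC5, TAP1 and CD74 led to a comparison of the mean of the 4 treatments with DMSO in the same fit, chosen after these values were seen. The highest treated and the lowest DMSO library were 8.05 and 9.28 CPM for NLRC5, 28.2 and 29.7 CPM for TAP1, and 57.3 and 57.8 CPM for CD74. Thus 3 of 7 tested members had all 12 treated libraries below all 3 DMSO libraries, as had 55 of 12567 genes (0.438%), while 49 genes (0.39%) had all of them above. Since earlier results of these data were known when the members were chosen, this does not test the set against all genes. The mean log2 fold change was −0.50 ± 0.116 for NLRC5 (SE, edgeR adjusted p = 0.145), −0.37 ± 0.107 for TAP1 (adjusted p = 0.254) and −0.23 ± 0.0600 for CD74 (adjusted p = 0.190), lower in 12 of 12 treated libraries for each. No member and no other gene passed in this comparison (0%), and 3 members were lower at an unadjusted p under 0.05, as were 5.34% of all genes. The count depended on the setting: with the replicate block 568 genes passed, among them TAP1 (edgeR adjusted p = 0.00876), NLRC5 (0.00993) and CD74 (0.0152), and without the low-count filter 354 genes passed, among them TAP1 (0.00826) and NLRC5 (0.0321). In that block the pairing of DMSO with treated cultures is weak (r of 0.0164 to 0.158). The same-numbered DMSO library was the closest in 8 of 12 cases. HLA-B, HLA-C, HLA-E and B2M had mean changes of −0.01, −0.01, 0.07 and −0.04.

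NLRC5, TAP1 and CD74 were singled out because their treated libraries lie below those of DMSO, and that choice by itself raises the correlations among them. Over the 15 libraries the correlation of log2 CPM was highest for TAP1 with NLRC5, at Pearson's r = 0.849 and Spearman's rho = 0.900, followed by CD74 with TAP1 at r = 0.755 and CD74 with NLRC5 at r = 0.628. For deviations from the group means, which leave out the difference from DMSO, the same pairs had r = 0.818, 0.644 and 0.310, and HLA-C with CD74 had r = 0.721. These deviations still hold what same-numbered treated libraries share. Replicate 2 was the lowest library of each treated group for both TAP1 and NLRC5, and its part in these correlations was not tested. The median of log2 CPM correlations over the 21 pairs of tested members was r = 0.282, and B2M with NLRC5 had r = −0.159. These values describe 15 libraries that fall into 5 groups and share depth and scaling, and no test was attached to them. By the same measure over all tested genes, the patterns most like that of CD74 were those of SLC12A4 (r = 0.916), ERBB2 (r = 0.895) and AKT1 (r = 0.892, with 70.1% of reads unique). For B2M they were MYL12B (r = 0.943), CHMP3 (r = 0.924, with 58.8% of reads unique) and ATP5C1 (r = 0.911).

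**Figure D4:**
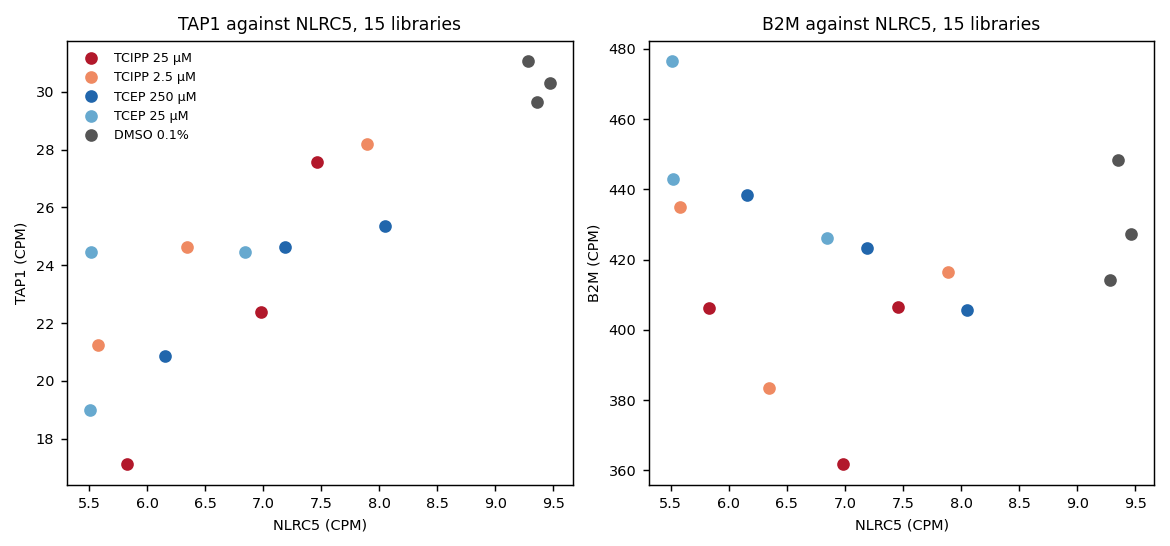
CPM of TAP1 (left) and B2M (right) against CPM of NLRC5, with 1 point per library in the colour of its group and axes that do not start at 0. In the left panel the 3 DMSO libraries lie at the upper right at 29.7 CPM of TAP1 and above, and in the right panel B2M shows no such order.

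Further measures of RNA composition stood beside these values. The intronic share of gene reads was 8.998 ± 0.496% with 25 µM TCIPP, 8.10 ± 0.490% with 2.5 µM TCIPP, 8.50 ± 0.228% with 250 µM TCEP, 8.23 ± 0.306% with 25 µM TCEP and 8.90 ± 0.211% in DMSO (SD, n = 3 each). The mitochondrial share was 7.03 ± 0.293%, 6.04 ± 0.344%, 6.60 ± 0.163%, 6.15 ± 0.341% and 6.997 ± 0.709% in the same order of groups. The part of both shares in the values of NLRC5, TAP1 and CD74 was not tested.

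Between the concentrations of 1 compound, no member passed, and no gene passed in either step (0%). With the replicate number as a block, which pairs treated cultures, 484 genes passed for 25 against 2.5 µM TCIPP and 185 for 250 against 25 µM TCEP, again without a member. At an unadjusted p under 0.05, 1 member was lower in the TCIPP step and 0 in the TCEP step, beside 5.78% and 3.83% of all genes. HLA-B differed most between 25 and 2.5 µM TCIPP, at 51.2 ± 4.58 CPM against 59.0 ± 2.09 CPM (SD, n = 3 each), a log2 fold change of −0.20 ± 0.0750 (SE, edgeR adjusted p = 0.344) without overlap of the libraries. Of all genes 6.57% were lower without overlap in that comparison, and 7.55% in the TCEP step, where no member was. For 250 against 25 µM TCEP the largest member difference was that of NLRC5, at 7.13 ± 0.951 CPM against 5.96 ± 0.769 CPM (SD, n = 3 each), with a log2 fold change of 0.25 ± 0.156 (SE, edgeR adjusted p = 0.761). The 95% intervals of these steps reached from −0.28 to 0.40 for NLRC5 and from −0.43 to 0.19 for TAP1 with TCIPP.

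The compounds met at 1 shared concentration, 25 µM, and 1 pair was compared there. No member passed for TCIPP against TCEP, and 5 genes (0.0398%) passed in all, or 1100 with the replicate block, again without a member. At an unadjusted p under 0.05, 2 members were lower, beside 8.94% of all genes. B2M was lower with TCIPP, at 391.5 ± 25.8 CPM against 449 ± 25.6 CPM with TCEP (SD, n = 3 each), a log2 fold change of −0.20 with a 95% interval of −0.35 to −0.05 (edgeR adjusted p = 0.162) and no overlap, as in 9.82% of all genes. HLA-B was also lower in mean, at 51.2 ± 4.58 CPM against 59.1 ± 3.14 CPM (SD, n = 3 each), with an interval of −0.36 to −0.04 (edgeR adjusted p = 0.177), and its libraries overlapped. For the 3 genes with all treated libraries below DMSO, the interval of the difference included 0: it was −0.16 to 0.53 for NLRC5, −0.31 to 0.30 for TAP1 and −0.10 to 0.23 for CD74. HLA-C and HLA-E had differences of 0.05 and −0.09.

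The other genes of the pathway were followed in 14 lists of 127 genes, cell markers included, of which 126 were matched and 80 were tested. Outside the marker lists 0 passed in any comparison. No marker gene passed in the pairwise comparisons or for the mean of treatments. Beside the members, 9 of 11 class I heavy chain and peptide loading genes were tested, with a median log2 fold change against DMSO of 0.02, 0.01, −0.01 and 0.05 for 25 µM TCIPP, 2.5 µM TCIPP, 250 µM TCEP and 25 µM TCEP. CANX, the gene of the chaperone calnexin, had 161 RPKM on average and was above B2M on that scale. The peptide trimming protease gene ERAP2, with 57.0% of its reads unique, had 16.0 ± 2.97 CPM with 25 µM TCIPP against 19.2 ± 3.56 CPM in DMSO. The non-classical gene HLA-G had 40 reads in all and was below the filter.

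All 5 immunoproteasome genes were tested, and 0 passed. PSME2, a subunit of the PA28 activator, had 124 ± 7.80 CPM with 2.5 µM TCIPP and 123 ± 7.64 CPM with 25 µM TCEP, against 144 ± 2.34 CPM in DMSO (SD, n = 3 each), with edgeR adjusted p = 0.158 and 0.149. The catalytic subunit gene PSMB9, whose span encloses TAP1, had 1.11 ± 0.359 CPM with 25 µM TCIPP, 1.23 ± 0.860 with 2.5 µM TCIPP, 1.94 ± 0.182 with 250 µM TCEP and 1.85 ± 0.344 with 25 µM TCEP, against 1.97 ± 0.161 CPM in DMSO. Among 8 partners of B2M outside classical class I, 3 were tested, and the 5 CD1 genes had 0 reads. MR1, which presents vitamin B metabolites to MAIT cells, was at 10.1 ± 2.26, 9.66 ± 0.276, 9.59 ± 0.727 and 9.64 ± 1.27 CPM with 25 µM TCIPP, 2.5 µM TCIPP, 250 µM TCEP and 25 µM TCEP, against 12.5 ± 1.52 CPM in DMSO. The edgeR adjusted p were 0.797, 0.242, 0.941 and 0.219 in the same order. The MR1 libraries lay wholly below those of DMSO with 2.5 µM TCIPP, 250 µM TCEP and 25 µM TCEP, and overlapped them with 25 µM TCIPP. The shares of all genes lower without overlap were 7.94%, 5.37% and 11.3% for the former, in the same order.

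Of 16 class II chain and loading genes, 5 were tested, all of them proteases or the reductase IFI30. The 11 chain genes beside the members had 0 to 6 reads each in all 15 libraries. The endosomal protease gene CTSB had 978 ± 125 CPM with 2.5 µM TCIPP and 946 ± 78.4 CPM with 25 µM TCEP, against 774 ± 65.2 CPM in DMSO (SD, n = 3 each), with edgeR adjusted p = 0.146 and 0.198. CTSS, the protease that trims CD74 in antigen-presenting cells, had 0.688 ± 0.317 CPM with 25 µM TCIPP against 2.00 ± 0.313 CPM with 25 µM TCEP (SD, n = 3 each), a log2 fold change of −1.58 ± 0.347 (SE, edgeR adjusted p = 0.0756), on 249 reads in all. The CD74 co-receptor genes CD44 and CXCR4 had 9 and 69 reads, and the ligand gene MIF, with 33.2% of its reads unique, had 282 ± 33.3 CPM with 25 µM TCIPP against 342 ± 53.2 CPM with 2.5 µM TCIPP.

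Of 9 promoter factor genes 8 were tested and 0 passed. CIITA, the class II transactivator, had 26 reads in all and was below the filter. RFX5, a subunit of the RFX complex with 71.8% of its reads unique, had 25.8 ± 4.11 CPM with 25 µM TCIPP, 25.0 ± 5.50 with 2.5 µM TCIPP, 27.8 ± 2.84 with 250 µM TCEP and 22.8 ± 3.79 with 25 µM TCEP, against 33.8 ± 5.01 CPM in DMSO (SD, n = 3 each). Its log2 fold change with 25 µM TCEP was −0.57 ± 0.156 (SE, edgeR adjusted p = 0.136), and replicate 2 was the lowest DMSO library, at 28.0 CPM. The RFX5 libraries lay wholly below those of DMSO with 25 µM TCEP, as for 11.3% of all genes. With the other treatments they overlapped DMSO. RFXAP, another subunit of the complex, had 13.4 ± 1.69 CPM with 25 µM TCIPP against 10.2 ± 1.29 CPM with 2.5 µM TCIPP.

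Of 13 interferon signalling genes 12 were tested, of 14 interferon-induced genes 9, and of 9 NF-kB genes 9, and 0 passed in each list. GBP2, an interferon-induced GTPase, had 20.1 ± 2.25 CPM with 25 µM TCIPP, 21.3 ± 3.84 with 2.5 µM TCIPP, 20.3 ± 2.22 with 250 µM TCEP and 22.0 ± 2.88 with 25 µM TCEP, against 25.3 ± 2.24 CPM in DMSO. The interferon-induced gene CXCL10 had 1 read in all, IFIT1 24, IFIT2 2 and IFIT3 22. NFKBIA, the inhibitor of NF-kB, had 91.2 ± 4.78 CPM with 25 µM TCEP against 123 ± 20.4 CPM in DMSO (SD, n = 3 each; edgeR adjusted p = 0.147). Other genes were higher than in DMSO. IFITM3, with 21.8% of its reads unique, had 161 ± 13.7 CPM with 2.5 µM TCIPP against 138 ± 17.1 CPM. With 25 µM TCEP, IFNGR1 had 125 ± 0.615 against 106 ± 1.84 CPM, and BIRC3 4.53 ± 1.29 against 2.65 ± 0.541 CPM. In that treatment 6 of 12, 5 of 9 and 5 of 9 log2 fold changes were negative, in the order of the lists. The list medians against DMSO lay between −0.05 and −0.01 for interferon signalling, −0.07 and 0.10 for interferon-induced genes, and −0.17 and −0.02 for NF-kB genes.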

How the data were processed

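RNA-seq of 15 HepG2 libraries, 3 in each of 5 groups, was used. The authors mapped reads with CLC Genomics Workbench to hg19, per the series' design text in the labels, and deposited whole-number counts of exon, unique exon and gene reads per gene. RPKM was also deposited by the authors (exon reads scaled to exon length and mapped reads), and each value was recovered from the counts within a relative tolerance of 0.0001. Of 57773 genes, 20986 had exon length 0 and were left out. Gene starts were moved to a 1-based scale.

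Total exon reads were tested with edgeR 4.0.16 (R 4.3.3): TMM, edgeR's low-count filter, all 15 libraries in 1 quasi-likelihood fit, Benjamini-Hochberg adjustment over 12567 genes and a threshold of 0.05. There were 7 pairwise comparisons and 1 test over all groups. Standard errors (SE) come from the size of a log2 fold change and its F statistic. The script was tested on simulated data. Without molecular identifiers, limits of detection cover only counting error. Alternatives were other counts, scalings, filters and sample sets, DESeq2 1.42.0, a replicate block, and each library left out in turn. Same-numbered treated libraries deviated together (r of 0.177 to 0.297 in 9 pairs of libraries), and the same number was the closest in all 9. Treated libraries did so less with DMSO (0.0164 to 0.158 in 12 pairs), where the same number was the closest in 8. The numbers were therefore taken to pair treated cultures, and a weaker pairing with DMSO remains possible. The members and gene lists were chosen with earlier results of these data known. All 9 members were named, and up to 3 genes with the smallest p were picked from each pathway list, of which examples are given, and some genes of the lists are not reported here. HLA-G, CD1, CIITA, CD44, CXCR4, CXCL10 and IFIT genes were named in addition.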

Additional observations from a re-analysis of the deposited data

How the results depend on the processing

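Depth limits the lowest genes: HLA-DRA, HLA-DMA, the class II chains and CIITA cannot be compared, and NLRC5 rests on 31 to 200 reads per library. With 3 libraries a group, no exact permutation test of 2 groups can fall below p = 0.1. Of 56 fold changes of the 7 tested members, repeated 840 times, 37 repeats changed sign, 0 of them among the 248 repeats of the 16 fold changes of at least 0.2. NLRC5, TAP1 and CD74 stayed below DMSO in every repeat of the 4 treatment comparisons, and 11 repeats of member fold changes passed. Whether a member passed depended on the filter and the block.

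Without the low-count filter, 2 members passed for 25 µM TCEP against DMSO (TAP1 at edgeR adjusted p = 0.0246 and NLRC5 at 0.0249), 1 in the test over all groups and 2 for the mean of treatments. With the replicate block, 1 member passed for 2.5 µM TCIPP (NLRC5, edgeR adjusted p = 0.0260, with a range of 0.0260 to 0.492 over its alternatives), 3 for 25 µM TCEP (NLRC5 at 0.00803, TAP1 at 0.0146 and CD74 at 0.0165), 3 over all groups and 3 for the mean of treatments. Same-numbered samples of DMSO and of the treated groups were only weakly alike (r of 0.0164 to 0.158). Over all alternatives for 25 µM TCEP, adjusted p ran from 0.00803 to 0.573 for NLRC5, 0.0146 to 0.634 for TAP1 and 0.0165 to 0.595 for CD74. The block changed no member's call between treated groups.

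The counts of all genes called moved more, and the cause was not tested. In the order 25 and 2.5 µM TCIPP and 250 and 25 µM TCEP against DMSO, the TCIPP step, the TCEP step, TCIPP against TCEP, all groups and the mean of treatments, the main counts were 1, 12, 0, 0, 0, 0, 5, 12 and 0. In that order they were 30, 232, 17, 131, 63, 14, 330, 384 and 48 with DESeq2, 80, 553, 50, 618, 345, 161, 756, 990 and 354 without the filter, and 47, 941, 34, 1037, 484, 185, 1100, 1107 and 568 with the replicate block. Unique exon reads gave 122 for 2.5 µM TCIPP, 2 for 25 µM TCEP, 40 over all groups and 13 for the mean. Gene reads gave 0 for 2.5 µM TCIPP, 1 for 250 µM TCEP and 13 for TCIPP against TCEP. Library totals gave 0 for 25 µM TCIPP, 35 for 2.5 µM TCIPP, 2 for TCIPP against TCEP and 4 over all groups, where DESeq2 size factors in edgeR gave 1. With only the groups compared in the fit, counts were 0 for 25 µM TCIPP, 23 for 2.5 µM TCIPP, 135 for 25 µM TCEP and 0 for TCIPP against TCEP. Leaving out 1 library gave 0 to 5, 0 to 307 (307 without DMSO replicate 2), 0 to 1 and 0 to 29 against DMSO, 0 to 208 for TCIPP against TCEP (208 without 25 µM TCIPP replicate 2), 0 to 84 over all groups and 0 to 48 for the mean.

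Sign changes occurred only among log2 fold changes under 0.2 in size. With unique exon reads HLA-C became −0.000322 for 25 µM TCIPP against DMSO and −0.00126 for the TCEP step, TAP1 0.0515 for TCIPP against TCEP and HLA-B 0.00907 for the mean. With gene reads HLA-C became −0.00447 and −0.000226 in the same comparisons and HLA-E −0.00196 for 25 µM TCIPP. HLA-C became −0.000608 for the TCEP step without the filter, and TAP1 0.00621 for TCIPP against TCEP with library totals. Leaving out 1 library gave, against DMSO, −0.0993 to 0.0651 for HLA-C and −0.0529 to 0.0796 for HLA-E with 25 µM TCIPP, and −0.0526 to 0.00555 for B2M and −0.0216 to 0.105 for HLA-E with 250 µM TCEP. For the TCIPP step it gave −0.134 to 0.0342 for HLA-C, −0.302 to 0.0148 for TAP1 and −0.0179 to 0.171 for NLRC5, and for the TCEP step −0.0663 to 0.000107 for CD74, −0.0409 to 0.131 for TAP1 and −0.00207 to 0.0145 for HLA-C. For TCIPP against TCEP it gave −0.0595 to 0.105 for HLA-C, −0.0188 to 0.117 for CD74 and −0.180 to 0.132 for TAP1, and for the mean −0.0348 to 0.0237 for HLA-C and −0.0299 to 0.00242 for HLA-B. Fold changes of the mean of treatments, and all its alternatives, were chosen after seeing the data.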
